A study of Arabidopsis thaliana with 6 samples.

Results

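Dirigent proteins and laccases act in the plant cell wall, where lignin forms when monolignols are oxidised to radicals and coupled. Laccases are copper-containing oxidases that can make such radicals, as class III peroxidases do. Dirigent proteins have no oxidising activity of their own and are known for steering how radicals couple. In the root both kinds of protein are known from the endodermis, the cell layer whose Casparian strip, a lignin band, closes the space between cells to diffusion. This account covers 7 probe sets, 5 of dirigent family genes and 2 of laccase genes, of 22746 on the array. They were picked by locus from the authors' deposited table, which holds 274 probe sets that passed the authors' filter on the same contrast between the genotypes. That filter asked for a fold change over 2, a difference of means over 100 and a p of at most 0.05. The differences between the genotypes given here are thus what chose these genes, and they are described without a test.

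The samples were whole seedlings of *Arabidopsis thaliana* Col 0, aged 15 days, with 3 biological replicates of the double mutant gapcp1gapcp2 and 3 of wild type. GAPCP1 and GAPCP2 encode the plastidial glyceraldehyde-3-phosphate dehydrogenase of glycolysis. The mutant lacks no other gene that the labels name, and the labels give neither the alleles nor how many plants made up a replicate. RNA came from sets of both genotypes raised at the same time on vertical plates. Each array gave 1 linear intensity per probe set, with array medians of 110.7 to 117.1 in gapcp1gapcp2 and 112.7 to 115.8 in wild type, and 3 arrays per genotype limit the precision. No probe set of GAPCP1 or GAPCP2 was named in the sources used here, so the targeted transcripts were not used to check the genotype labels. Leaves and roots were extracted together, so fewer cells of a type and less RNA per cell cannot be told apart in any value below.

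Of the 7 genes, 6 were lower in gapcp1gapcp2 and 1 was higher. The mean intensity of the 6 lower ones was 28.9% to 44.1% of the wild-type mean. They were the dirigent genes ESB1, AT4G13580, AT2G39430 and AT5G42500 and the laccase genes LAC7 and LAC3. The dirigent gene AT4G11190 stood at 208% of the wild-type mean. For 7 of 7 genes every mutant array lay on 1 side of every wild-type array, a pattern that 32.1% of all probe sets showed (7295 of 22746, in either direction). Changes are given as log2(intensity + 16) in gapcp1gapcp2 minus wild type, with values below 0 set to 0 and with the standard error of a limma fit over all probe sets. The median change of the 7 was -1.25, and that of all 22746 probe sets was -0.02. Over all probe sets the fit called 11.0% at a Benjamini-Hochberg adjusted p under 0.05, and 5.13% as lower and 5.86% as higher in gapcp1gapcp2. It called 7 of the 7, and since the authors' filter had chosen them, nothing is read from that count. The count of calls over the array was 2501, and it was 1190, 1197 and 1422 without gapcp1gapcp2 replicate 2, gapcp1gapcp2 replicate 3 and wild type replicate 2.

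**Figure D1:**
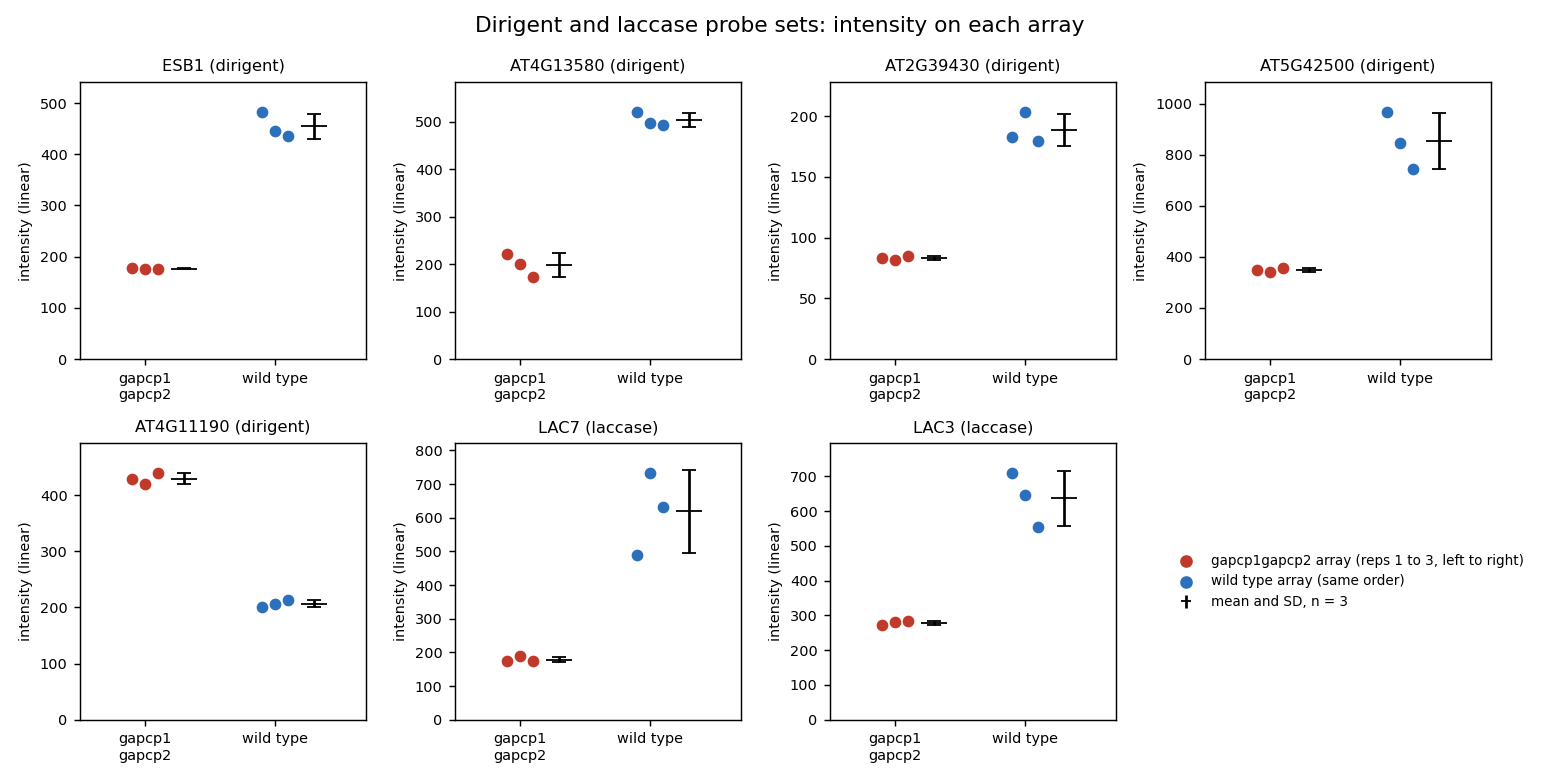
Linear intensity (vertical axes, from 0) of the 7 probe sets on each of 6 arrays, with gapcp1gapcp2 in red and wild type in blue, and the mean with its SD (n = 3) in black. The gapcp1gapcp2 arrays lie below the wild-type arrays in 6 panels and above them for AT4G11190.

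ESB1 (AT2G28670, chromosome 2) encodes a dirigent-domain protein of the Casparian strip, and its loss is known to disturb the strip and to raise root suberin. Its intensity was 177.5, 175.0 and 176.2 in gapcp1gapcp2 replicates 1 to 3, against 482.6, 444.8 and 435.4 in wild type replicates 1 to 3. The mutant arrays lay within 2.41 units of each other, while 258 units separated the highest mutant array from the lowest wild-type array. The mean was 176 ± 1.21 in gapcp1gapcp2 and 454 ± 25.0 in wild type (SD, n = 3 each), a log2 change of -1.29 ± 0.07 (SE).

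AT4G13580 (chromosome 4) was annotated in the authors' deposited table as a disease resistance-responsive family protein, an older name for dirigent proteins. Its intensity was 221.2, 201.1 and 172.0 in gapcp1gapcp2, against 520.6, 496.4 and 492.8 in wild type. This gene was the only 1 of the 7 whose relative spread was wider in gapcp1gapcp2 (coefficient of variation 12.5%) than in wild type (3.004%). The gap between the groups, 272 units, was still wider than the range within either, which was 49.2 units in gapcp1gapcp2 and 27.8 units in wild type. The mean was 198 ± 24.7 in gapcp1gapcp2 and 503 ± 15.1 in wild type, with a log2 change of -1.28 ± 0.10 (SE).

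AT2G39430 (chromosome 2), annotated in the authors' deposited table as dirigent protein-related, had the smallest change among the 6 lower genes. Its intensity was 83.0, 81.9 and 84.6 in gapcp1gapcp2, against 182.4, 203.4 and 179.8 in wild type. Each mutant array was thus less than each wild-type array by at least 95.2 units, and the mutant arrays were again close together. The mean was 83.2 ± 1.37 in gapcp1gapcp2 and 189 ± 12.9 in wild type, with a log2 change of -1.04 ± 0.07 (SE). In the authors' deposited table its difference of means was -105.7, which is just past their minimum of 100, and it was the smallest difference among the 7.

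AT5G42500 (chromosome 5), a further dirigent family gene, was read by a probe set with the suffix _s_at, which on this array type marks probes that match more than 1 transcript. The files do not say which other transcripts those are. In the RefSeq order of protein-coding genes AT5G42510, another dirigent family gene, lies 2 genes away, and the signals of close relatives that share probes cannot be separated here. The intensity was 347.3, 342.4 and 355.9 in gapcp1gapcp2, against 967.2, 846.1 and 745.8 in wild type. The mutant arrays spanned 13.5 units and the wild-type arrays 221 units, and the groups lay 390 units apart. The mean was 349 ± 6.83 in gapcp1gapcp2 and 853 ± 111 in wild type, with a log2 change of -1.25 ± 0.10 (SE).

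AT4G11190 (chromosome 4) was the dirigent family gene that ran the other way. Its intensity was 428.0, 420.0 and 439.7 in gapcp1gapcp2, against 199.9, 206.6 and 212.5 in wild type. Both genotypes were tight, with ranges of 19.7 units in gapcp1gapcp2 and 12.5 units in wild type, and 208 units lay between them. The mean was 429 ± 9.88 in gapcp1gapcp2 and 206 ± 6.27 in wild type, with a log2 change of 1.00 ± 0.06 (SE). In the authors' deposited table its fold change of 2.07 was the closest of the 7 to their minimum of 2. Its neighbours on both sides in the RefSeq gene order, AT4G11180 and AT4G11210, belong to the dirigent family too. Neither was in the authors' deposited table, and the probe set carries no mark of shared probes.

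The laccase gene with the lowest change was LAC7 (AT3G09220, chromosome 3). Its intensity was 173.3, 189.0 and 174.8 in gapcp1gapcp2, against 490.4, 733.8 and 633.3 in wild type. Its coefficient of variation was 4.84% in gapcp1gapcp2 and 19.8% in wild type, the widest wild-type spread of the 7 genes. The lowest wild-type array was still 301 units above the highest mutant array. The mean was 179 ± 8.66 in gapcp1gapcp2 and 619 ± 122 in wild type, with a log2 change of -1.69 ± 0.15 (SE). Of the 22746 probe sets 29 had a lower change, a low rank that the authors' 2-fold minimum favours.

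LAC3 (AT2G30210, chromosome 2) encodes a laccase known to accumulate at the Casparian strip of the endodermis. Its intensity was 272.3, 279.9 and 284.5 in gapcp1gapcp2, against 710.1, 646.7 and 553.2 in wild type. The mutant arrays ranged over 12.2 units and the wild-type arrays over 157 units, with 269 units between the groups. The mean was 279 ± 6.16 in gapcp1gapcp2 and 637 ± 78.9 in wild type, with a log2 change of -1.14 ± 0.10 (SE).

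Ordered by log2 change, the genes ran LAC7, ESB1, AT4G13580, AT5G42500, LAC3, AT2G39430 and, on the other side of 0, AT4G11190. The change of LAC7 was 0.40 below that of ESB1, the next in order, with a standard error of 0.21 for that difference. ESB1 and AT4G13580 differed by 0.01 (SE 0.10), and AT4G13580 and AT5G42500 by 0.04 (SE 0.14). AT5G42500 and LAC3 differed by 0.11 (SE 0.02). That error is smaller than those of the single genes because the difference was taken array by array, and this pair had the highest correlation of deviations among the 7 genes. These differences between neighbours come from the contrast that chose the genes and are descriptions, not tests. LAC3 and AT2G39430 differed by 0.10 (SE 0.10). LAC7 had the lowest change of the 7 and LAC3 the second highest of the lower 6, so neither family lay wholly below the other.

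**Figure D2:**
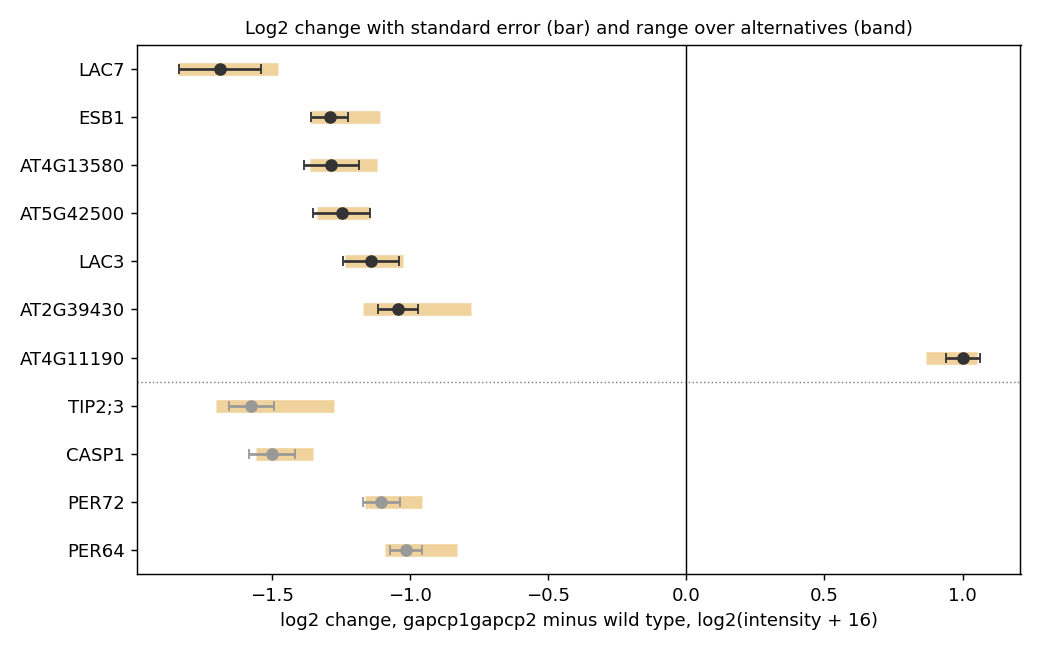
Log2 change (horizontal axis, gapcp1gapcp2 minus wild type) of the 7 genes, ordered, above the dotted line, and of 4 other root genes below it. Points are the main values, whiskers the standard error and bands the range over the alternative settings. LAC7 is lowest at -1.69, AT4G11190 is highest at 1.00, and no band reaches 0.

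Among all probe sets the 7 were of middle to high intensity. In gapcp1gapcp2 43.1% to 81.5% of probe sets had a lower mean than a given gene of the 7, with AT2G39430 the dimmest and AT4G11190 the brightest by that rank. In wild type the same ranks ran over 62.7% to 91.4%, with AT2G39430 again the dimmest and AT5G42500 the brightest. The 6 lower genes were among the 150 lowest log2 changes of the array, at ranks 30 to 150, and 174 probe sets (0.765%) had a change of -1 or below. AT4G11190 ranked 226 from the top. The authors' 2-fold minimum puts the genes it chose near 1 end or the other of this order, so nothing is read from these ranks. Of the 274 probe sets of the authors' deposited table, 106 were lower and 168 higher in gapcp1gapcp2. The median of the 6 lower genes, -1.26, stood beside -1.34 for those 106.

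**Figure D3:**
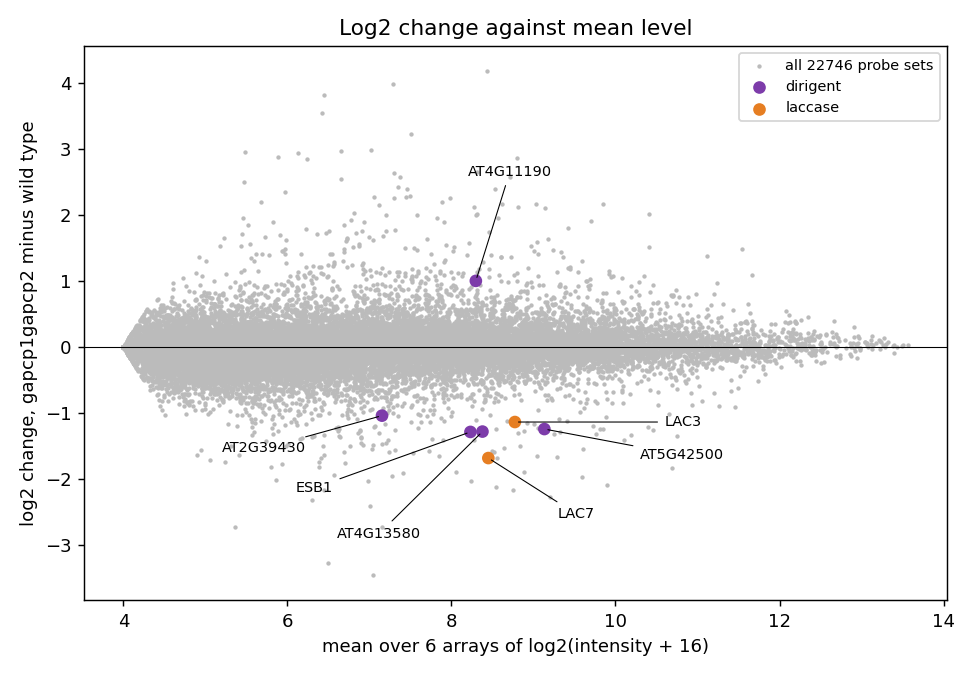
Log2 change (vertical axis, gapcp1gapcp2 minus wild type) against the mean over 6 arrays of log2(intensity + 16) (horizontal axis) for 22746 probe sets in grey, with dirigent genes in purple and laccase genes in orange. The 6 lower genes lie at changes of -1.04 to -1.69, among the lowest of the array and away from its dim end. The authors' filter on fold change and difference of means favours both positions.

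Replicates of gapcp1gapcp2 were closer to each other than replicates of wild type for 6 of the 7 genes. Coefficients of variation ranged over 0.685% to 12.5% in gapcp1gapcp2, with a median of 2.21%, and over 3.004% to 19.8% in wild type, with a median of 6.86%. The 12133 probe sets with a mean of at least 100 had medians of 6.36% in gapcp1gapcp2 and 6.47% in wild type. Those 12133 were chosen by mean only, whereas the authors' limit on p favours close replicates among the genes it chose. The share of all probe sets with closer mutant replicates was not counted, so nothing is read from the 6 of 7. Other genes of the authors' deposited table named below went both ways. GLYI4 and HRS1, picked for likeness to the 7, were closer in gapcp1gapcp2, and CASP1 and MAP18 were closer in wild type. The difference in spread between the genotypes was not tested.

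Deviations from the genotype mean on the log2 scale describe how the genes varied between replicates. Among the wild-type arrays, ESB1, AT5G42500, LAC3 and AT4G13580 were each highest in replicate 1 and lowest in replicate 3. AT4G11190 had the reverse order. For AT5G42500 the deviations were 0.19 and -0.18 on those arrays, for LAC3 0.16 and -0.19, and for ESB1 0.09 and -0.06. They were smaller for AT4G13580, at 0.05 and -0.03, and were -0.04 and 0.04 for AT4G11190. AT4G13580 varied more over the mutant arrays, at 0.15 in gapcp1gapcp2 replicate 1 and -0.18 in gapcp1gapcp2 replicate 3. LAC7 was lowest in wild type replicate 1 (deviation -0.31) and highest in wild type replicate 2 (0.26). So both laccases did not share 1 order over the wild-type arrays. Over 6 arrays Pearson's r of the deviations was 0.97 for AT5G42500 with LAC3, 0.94 for ESB1 with AT5G42500, 0.86 for ESB1 with LAC3 and -0.84 for ESB1 with LAC7. AT4G13580 had an r of 0.29 with ESB1, 0.12 with AT5G42500 and 0.05 with LAC3. The points share their arrays. For ESB1, AT5G42500, LAC3 and LAC7 the values rest mainly on the 3 wild-type arrays, because their mutant deviations were small. Of the 21 pairs of the 7 genes 11 had an r above 0 (52.4%), against 58.1% of the 32640 pairs among 256 probe sets of the authors' deposited table without shared probes. Of those 32640 pairs 5.71% reached the 0.86 of ESB1 with LAC3. The r of 0.97 and that of -0.84 were the highest and lowest of the 21 pairs. The median r was 0.05 for the 21 pairs and 0.14 for the 32640 pairs.

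**Figure D4:**
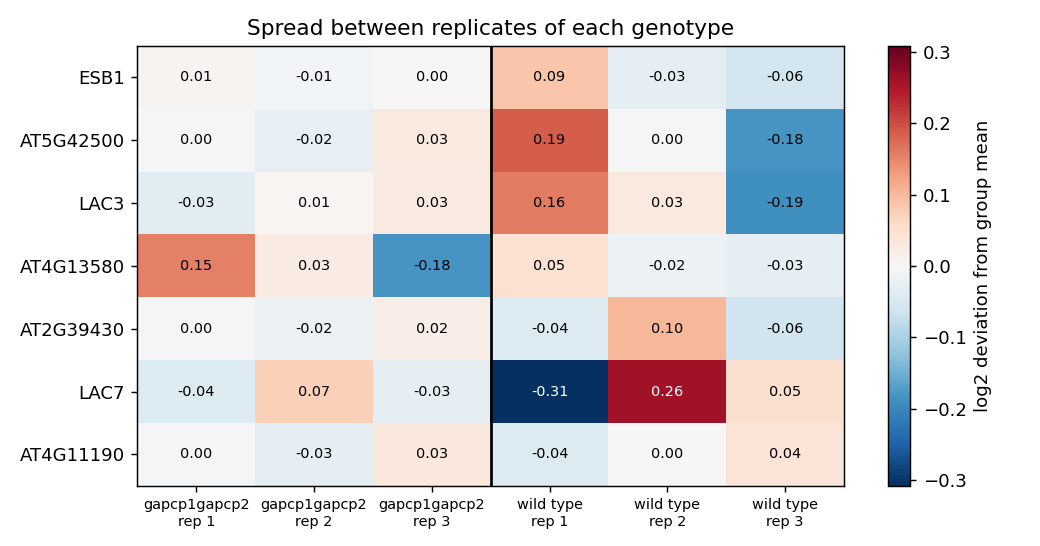
Log2 deviation of each array from the mean of its genotype (colour and printed value) for the 7 genes (rows) over 3 gapcp1gapcp2 and 3 wild-type arrays (columns). ESB1, AT5G42500, LAC3 and AT4G13580 are above their mean in wild type replicate 1 and below it in wild type replicate 3. LAC7 has the widest spread, with -0.31 in wild type replicate 1.

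The authors' deposited table gives means of its own, and the file headers number the arrays up to 12. Whether that table, whose filter chose the genes, rests on these 6 arrays with the same processing is unknown. For ESB1 the authors' deposited table has a mean of 205.1 in gapcp1gapcp2 and 480.0 in wild type, a fold change of -2.34 with bounds of -2.12 and -2.59, where a negative sign marks a lower mutant. The mutant mean lies above all 3 mutant arrays, which read 175.0 to 177.5. For AT5G42500 the authors' deposited table has 330.4 in gapcp1gapcp2, below all 3 mutant arrays. The other 5 mutant means and the 7 wild-type means of the authors' deposited table lay within the range of the arrays. The fold change of LAC7 in the authors' deposited table was -3.45, with bounds of -2.63 and -4.40.

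A dirigent family list of 25 loci and a laccase list of 17 loci were set against the table. Probe sets could be tied to a locus only through that table, which named 5 of the 25 dirigent genes (4 lower, 1 higher) and 2 of the 17 laccase genes (2 lower, 0 higher). The other 20 dirigent and 15 laccase loci were not analysed here, and nothing is known of their change. Summed over the named dirigent probe sets, intensity was 1220 to 1257 in gapcp1gapcp2 and 2066 to 2353 in wild type. That sum holds the higher AT4G11190 and the shared probe set of AT5G42500. It is not an amount of transcript of the family. Summed over both laccases it was 446 to 469 in gapcp1gapcp2 and 1187 to 1380 in wild type.

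A list of 15 other Casparian strip genes had 3 named members, all lower in gapcp1gapcp2, with a median log2 change of -1.10. CASP1, which encodes a membrane scaffold protein of the strip, had intensities of 263.0, 273.4 and 232.9 in gapcp1gapcp2, against 713.8, 768.9 and 776.8 in wild type (log2 change -1.50 ± 0.08 SE). PER64, a peroxidase known to act in lignification of the strip, had 140.1, 134.1 and 139.5 in gapcp1gapcp2, against 293.5, 299.1 and 291.4 in wild type (log2 change -1.01 ± 0.06 SE). The peroxidase gene AT5G66390, named PER72 in the authors' deposited table, had 197.0, 206.2 and 191.7 in gapcp1gapcp2, against 424.6, 462.6 and 446.6 in wild type (log2 change -1.10 ± 0.07 SE). For each of the 3, the highest mutant array was below the lowest wild-type array, as for 16.6% of all probe sets (3779 of 22746), and nothing is read from that count since the authors' filter chose them. These genes also come from the filtered table, so their direction is no independent evidence for the dirigent and laccase genes.

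Markers of other cell types were mostly unnamed. The list of root hair and epidermis genes had 1 of 6 members named, the tonoplast channel TIP2;3, which read 98.0 to 118.2 in gapcp1gapcp2 and 335.1 to 358.8 in wild type (log2 change -1.57 ± 0.08 SE). It thus lay between LAC7 and ESB1 in size of change. Arrays of whole seedlings do not show which root cells expressed TIP2;3, so its value is not read as a change of the epidermis. None of the 14 suberin genes, 15 monolignol synthesis genes, 6 xylem secondary wall genes or 6 leaf genes was named, and their values were not analysed here. The part of root amount or of other cell types in the lower dirigent and laccase values was not tested.

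For each gene, the 2 others with the highest Pearson's r over the 6 log2 values were taken from 250 named probe sets without shared probes. With 3 arrays per genotype and all candidates filtered for a difference, such an r is set largely by the difference between the genotypes, and it is given as a description. Among the 6 lower genes themselves it ranged from 0.945 (AT5G42500 with LAC7) to 0.999 (AT5G42500 with LAC3). For ESB1 they were APS4, an ATP sulfurylase gene of sulfate assimilation (r = 0.9993), and XTH15, a xyloglucan endotransglycosylase gene (r = 0.9990). AT4G13580 was most like MAP18, which encodes a microtubule-associated protein, and AT5G62340, of an invertase and pectin methylesterase inhibitor family. AT2G39430 was most like TPPB, a trehalose-6-phosphate phosphatase gene, and GLYI4, of the glyoxalase I family. AT5G42500 and LAC3 had the same pair, HRS1, a MYB-related transcription factor gene (r = 0.9992 with AT5G42500 and 0.9986 with LAC3), and the peroxidase gene AT3G01190. LAC7 was most like GLYI4 (r = 0.9944) and AGP30, an arabinogalactan protein gene. AT4G11190 was most like LOX2, a lipoxygenase gene of jasmonate synthesis, and AT1G47400, which the authors' deposited table lists as a hypothetical protein.

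Of these 11 genes 9 were lower in gapcp1gapcp2, with log2 changes between -2.32 (AGP30) and -1.05 (HRS1), and LOX2 and AT1G47400 were higher (1.49 and 4.18). The sizes for AGP30 and AT1G47400 depend on the pseudocount, with -3.01 at 1 and -1.43 at 64 for AGP30 and 3.55 at 64 for AT1G47400. HRS1 read 157.5, 162.4 and 162.2 in gapcp1gapcp2, against 396.4, 342.4 and 314.0 in wild type, and so was highest in wild type replicate 1, as AT5G42500 and LAC3 were. The peroxidase gene AT3G01190 read 341.0, 327.6 and 337.5 in gapcp1gapcp2, against 1229.7, 1136.5 and 952.8 in wild type. Its highest and lowest wild-type values were on the same arrays as those 2 genes. HRS1 and AT3G01190 were picked for a high r over these same arrays, so the shared order follows in part from that choice. APS4, XTH15 and MAP18 had this order too, and the other picked genes did not.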

How the data were processed

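Groups and replicate numbers came from the sample titles; the description fields speak of embryos, which no other label shares, and were not used. The authors deposited linear intensity values per probe set. GCOS is named in the submitters' processing notes, with no version, and how it scaled the arrays is not stated there. The authors' deposited table gives mean intensity, a signed fold change score with bounds, and p-values, filtered per the file headers. Of its loci 273 of 274 matched RefSeq TAIR10.1, used for symbols and gene order only.

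Values below 0 (1.85%) were set to 0, log2(intensity + 16) was taken, and limma 3.58.1 (R 4.3.3) was fitted to 6 arrays with genotype as the only term. Its p-values were adjusted by Benjamini-Hochberg over all 22746 probe sets. The fold of dim probe sets is understated on this scale. Only the limma fit was tested on simulated data, with changes placed in the brighter probe sets. Python 3.11.15, pandas 2.3.3, numpy 2.4.6 and matplotlib 3.10.9 made summaries and figures. Members and lists were chosen with earlier results of these data known. Named genes are the members, up to 4 named genes per list and the 2 most alike per member. Alternatives were quantile normalisation, median centring, pseudocounts of 1 and 64, a filter on the dimmest 40%, trend and robust moderation, a 2-fold minimum, a replicate block, leaving out each array and, added later, leaving out replicate 1 of both genotypes.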

Additional observations from a re-analysis of the deposited data

How the results depend on the processing

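Each of the 7 genes had 11 alternatives that could change its log2 change. The replicate block and the filter on dim probe sets cannot change it by construction. Of these 77 values 8 moved by more than 1 SD of the replicates and 0 reversed, which is no test of stability because the genes were chosen for a difference over 2-fold. The widest moves came with the pseudocount. At 64 the log2 change of AT2G39430 was -0.78 and at 1 it was -1.17, against -1.04, and AT4G11190 was 0.87 at 64. The median change of the 7 was -1.11 at a pseudocount of 64, and -1.30 to -1.15 when 1 array was left out. LAC7 was -1.84 without wild type replicate 1. The 15 other named genes had 165 such values, of which 22 moved and 0 reversed, and AGP30 had no value with the dimmest 40% left out.

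The background count of called probe sets moved too. Against 2501 (1334 higher, 1167 lower), leaving out 1 array gave 1190 to 2347 (620 to 1362 higher, 560 to 985 lower), with fewer arrays tested. The lowest counts were 1190 without gapcp1gapcp2 replicate 2, 1197 without gapcp1gapcp2 replicate 3 and 1422 without wild type replicate 2. Leaving out replicate 1 of both genotypes, chosen after seeing the data, gave 1504 (871 higher, 633 lower). Asking for a 2-fold change as well gave 390 calls by construction, 222 of them higher and 168 lower. Counts rose to 3502 with trend and robust moderation, 3038 without the dimmest 40% (of 13647 tested) and 3032 at a pseudocount of 64. The replicate block gave 1687 calls, with 777 lower, and left the log2 changes as they were. Same-numbered arrays had deviations from their group means correlated at 0.234, 0.0186 and 0.0174 for numbers 1, 2 and 3. For arrays of unlike number the values ran from -0.165 to 0.169. These correlations do not settle whether same-numbered arrays were raised as pairs. The main fit did not pair them, and the replicate block did. The cause of these moves was not tested where fewer arrays or probe sets do not give it. The planned promoter motif and protein identity descriptions were not run, since no sequences were used here. The fold of a dim probe set depends on the pseudocount.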
